A study of Homo sapiens with 42 samples.

Results

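The 10 genes described here serve cell volume control and the response to osmotic stress: NFAT5, SGK1, SLC38A2, SLC5A3, SLC6A6, AKR1B1, SLC12A2, WNK1, OXSR1 and STK39. They were taken by gene symbol from the 58243 genes counted, and each had 1 row in both count tables. Counts came from K562, an established line grown from a chronic myeloid leukemia in blast crisis, which carries the BCR-ABL1 fusion kinase. Poly(A) mRNA of whole cells (27 libraries) and nuclear RNA (15 libraries) were sequenced with 3 replicates per group. Cells were left untreated (CTRL), or received 1 μM imatinib (IM), an inhibitor of BCR-ABL1, or 5 μM JTE-607 (JTE), an inhibitor of the 3′ end nuclease CPSF73, or 110 mM KCl. The mRNA groups were CTRL, KCl for 1 and 3 h, and JTE and IM for 1, 6 and 18 h each. The nuclear groups were CTRL, KCl 1h, JTE 1h, IM 1h and IM 18h. All groups are 1 cell line, all carry the fusion kinase, and 1 CTRL group per fraction served every time. Added KCl raises external potassium together with osmolarity, and no other osmolyte was tested in these groups, so both parts of the stress cannot be told apart.

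A cell placed in hypertonic medium loses water and shrinks within minutes. It first takes up ions through the Na-K-2Cl cotransporter NKCC1 (SLC12A2), which the kinase WNK1 switches on through OXSR1 and SPAK (STK39). Over hours the ions are replaced by compatible osmolytes. These are myo-inositol, taken up by SMIT1 (SLC5A3), taurine, taken up by TauT (SLC6A6), sorbitol, made by aldose reductase (AKR1B1), and neutral amino acids, taken up by SNAT2 (SLC38A2). NFAT5, also called TonEBP, is the transcription factor that raises the genes for osmolyte uptake and synthesis by binding tonicity-responsive enhancers (TonE). SGK1 is a kinase first known as a gene induced by serum, glucocorticoids and cell shrinkage, and it regulates many ion and amino acid transporters.

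Promoter windows are shown for the 3 genes called after KCl, the osmotic treatment. RefSeq windows on GRCh38.p14, from 250 bases before to 50 bases after a start site, were at hand for 8 of the 10 genes (11 windows). NFAT5 and SLC6A6 had no entry. SGK1 had 3 windows, of which the one nearest to the 3′ end of the gene is shown. The windows lie at chr12:46372724-46373023 (minus strand) for SLC38A2, at chr6:134174817-134175116 (minus strand) for SGK1 and at chr21:34073328-34073627 (plus strand) for SLC5A3. Each is read 5′ to 3′ on the strand of the gene, and capitals mark a motif match.

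SLC38A2: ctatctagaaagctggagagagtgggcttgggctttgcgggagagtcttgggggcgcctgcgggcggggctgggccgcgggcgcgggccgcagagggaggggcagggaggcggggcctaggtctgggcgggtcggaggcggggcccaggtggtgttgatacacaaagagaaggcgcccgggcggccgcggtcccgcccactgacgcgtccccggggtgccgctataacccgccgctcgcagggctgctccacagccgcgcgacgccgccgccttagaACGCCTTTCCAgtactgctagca
SGK1: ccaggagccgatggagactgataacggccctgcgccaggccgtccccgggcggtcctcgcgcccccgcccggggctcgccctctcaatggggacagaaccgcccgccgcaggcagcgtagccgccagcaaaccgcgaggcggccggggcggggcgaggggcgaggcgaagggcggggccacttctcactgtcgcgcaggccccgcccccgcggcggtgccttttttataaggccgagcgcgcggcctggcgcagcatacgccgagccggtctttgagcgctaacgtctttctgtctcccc
SLC5A3: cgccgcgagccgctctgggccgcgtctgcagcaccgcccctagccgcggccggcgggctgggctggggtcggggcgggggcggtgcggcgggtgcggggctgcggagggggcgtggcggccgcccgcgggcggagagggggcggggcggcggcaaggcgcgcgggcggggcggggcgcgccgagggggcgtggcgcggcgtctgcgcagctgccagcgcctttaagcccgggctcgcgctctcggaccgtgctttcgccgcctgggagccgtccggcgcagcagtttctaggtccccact

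Both strands were searched for the TonE consensus, for TGGAAA (the core bound by NFAT proteins), for TGANTCA (AP-1), for TGACGTCA (the cyclic AMP response element) and for ATTGCATCA (an amino acid response element). The SLC38A2 window held 1 TonE consensus match, which starts at base 278 of the 300 on the opposite strand and overlaps a TGGAAA match. A TonE consensus match occurred in 22.8% of all 35116 RefSeq windows and in 1 of the 11 windows of these genes. TGGAAA occurred in 20.7% of all windows and in 2 of the 11, those of SLC38A2 and WNK1. TGACGTCA occurred in 1.85% of all windows and, among these genes, in that of OXSR1. TGANTCA (7.71% of all windows) and ATTGCATCA (0.236%) were in none of the 11. Sequence outside these windows, introns included, was not searched, so a window without a match does not mean a gene without the motif. The 3 windows shown are rich in G and C, at 72.0% for SLC38A2, 73.3% for SGK1 and 82.0% for SLC5A3, against a median of 58.7% over all windows.

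Total counts ran from 16439848 to 22505595 in 25 of the mRNA libraries, while KCl 1h replicates 2 and 3 were deeper, and the highest total was 62953314. Nuclear totals ran from 16175394 to 25103205. The summed level of the 9 erythroid and K562 markers was 3271 to 16315 CPM (counts scaled to a common library total) in mRNA libraries, against at most 3.70 for 3 T cell markers and 6.93 for 3 B cell markers. The highest sums were 14.6 CPM for 2 monocyte markers and 11.9 CPM for 3 fibroblast markers. The 3 epithelial markers summed to between 75.0 and 107 CPM, most of it EPCAM. In mRNA, the deviations of CTRL replicate 1 from its group followed those of replicate 2 of KCl 1h (r = 0.715) and JTE 1h (r = 0.843), and those of CTRL replicate 2 followed replicate 1 of the same groups (r = 0.754 and 0.869). The labelled numbers therefore did not pair the mRNA CTRL libraries with the treated ones. The study's list of mapped reads gives the totals of these CTRL libraries under the exchanged numbers. A fit with the replicate as a block and mRNA CTRL replicates 1 and 2 exchanged was added after seeing the data. For SLC38A2, the member with the widest CTRL spread, the mRNA change after KCl for 1 h is given with that block and without CTRL replicate 2.

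Levels per length, in TPM (counts per exonic base, scaled to the same sum in each library), differed widely among the 10 genes in untreated cells. SLC38A2 stood highest in mRNA at 173 ± 116 TPM (SD, n = 3), followed by OXSR1 at 85.2 ± 4.48, SLC6A6 at 76.5 ± 15.4 and WNK1 at 56.6 ± 2.46. SLC5A3, SLC12A2 and NFAT5 lay close together, at 17.9 ± 1.503, 16.6 ± 1.40 and 14.9 ± 0.514 TPM. AKR1B1 had 3.52 ± 0.306 TPM, SGK1 2.15 ± 0.855 and STK39 0.584 ± 0.300. Neighbours in this order overlapped between libraries for OXSR1 and SLC6A6, for SLC5A3 and SLC12A2, and for SLC12A2 and NFAT5, and not for the others. In nuclear RNA SLC6A6 led at 158 ± 15.6 TPM and overlapped with SLC38A2 at 140 ± 44.5 TPM, and the lowest places were again AKR1B1, SGK1 and STK39. STK39 was thus close to the limit of detection, and OXSR1 was the abundant one of the 2 kinases that WNK1 acts on.

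**Figure D1:**
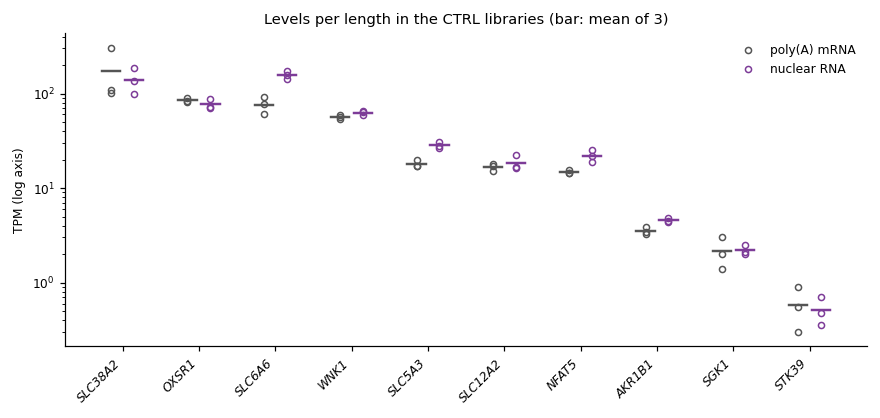
TPM (log axis) of each gene in the 3 CTRL libraries of poly(A) mRNA and of nuclear RNA, with a bar at the mean. SLC38A2, OXSR1, SLC6A6 and WNK1 form the upper group in both fractions, and STK39 lies lowest at 0.584 TPM in mRNA and 0.514 TPM in nuclear RNA.

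The first comparison asked which of these genes responded to KCl. In mRNA after 1 h, 1 of the 10 genes was called higher (SGK1), against a background of 2.51% of 18095 tested genes, and none was called lower. A call required an adjusted p under 0.05 in edgeR's quasi-likelihood test and a log2 fold change beyond 0.6. After 3 h, 2 genes were called higher (SGK1 and SLC38A2), with 4.55% of all genes called higher, and 1 was called lower (SLC5A3), with 7.33% of all genes called lower. In nuclear RNA after 1 h, 2 genes were called higher (SGK1 and SLC38A2), with 15.3% of 21929 tested genes called higher. The median log2 fold change of the 10 genes was 0.14, 0.18 and 0.21 in these comparisons, and that of all genes was 0.01, 0.02 and 0.02. Counts from bulk RNA cannot tell fewer responding cells from less RNA per cell.

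**Figure D2:**
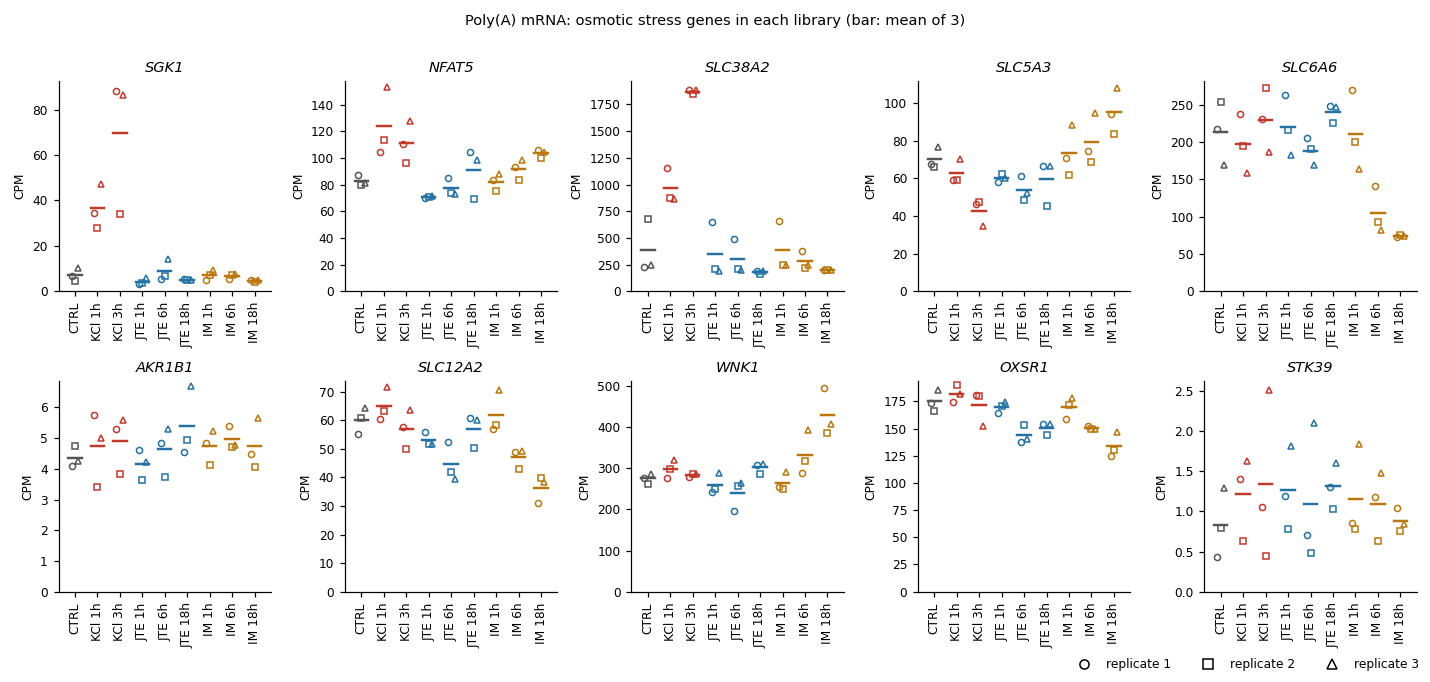
CPM of each gene in every poly(A) mRNA library, by group, with replicate numbers as symbols and bars at the mean of 3. SGK1 and SLC38A2 are highest in both KCl groups, SLC5A3 is lowest after KCl for 3 h, SLC6A6 is lowest after imatinib for 18 h and WNK1 is highest there.

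SGK1 had 6.82, 4.62 and 10.4 CPM in the 3 CTRL mRNA libraries. It had 34.7, 27.8 and 47.1 CPM after KCl for 1 h and 88.4, 34.3 and 86.4 CPM after 3 h. Every KCl library lay above every CTRL library. The log2 fold change was 2.34 (SE 0.36, adjusted p = 0.000148) at 1 h, or 5.07-fold, and 3.29 (SE 0.37, adjusted p = 1.1e-06) at 3 h, or 9.78-fold. In nuclear RNA SGK1 went from 6.51, 6.69 and 8.23 CPM to 45.6, 33.5 and 35.2 CPM, a log2 fold change of 2.43 (SE 0.16, adjusted p = 1.3e-09). The nuclear and mRNA changes at 1 h differed by -0.01 (SE 0.35, adjusted p = 1.00), so a difference between fractions was not detected. SGK1 was therefore a low transcript that became a moderate one within 1 h, in the nucleus and in the poly(A) pool alike.

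The further rise of SGK1 from 1 h to 3 h was less certain. Its libraries overlapped between both times, because KCl 3h replicate 2 stood at 34.3 CPM. The log2 fold change of KCl 3h against KCl 1h was 0.95 (SE 0.33, adjusted p = 0.117), and it was 1.26 (adjusted p = 0.0237) without KCl 3h replicate 2. The replicate numbers paired these groups, and with the replicate as a block the change was 0.94 (adjusted p = 0.0172). SLC5A3 changed by -0.53 from 1 h to 3 h (SE 0.16, adjusted p = 0.0525), and by -0.639 (adjusted p = 0.0474) without KCl 3h replicate 2. SLC38A2 was 0.98 higher at 3 h than at 1 h (SE 0.47, adjusted p = 0.345), with no overlap between its libraries, and it was called in a fit of only these groups (0.969, adjusted p = 0.00944). In the fit of all mRNA libraries, none of the 10 genes was called between the KCl times, where 3.29% of all genes were called in either direction.

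SLC38A2, which encodes the amino acid transporter SNAT2, had 229.9, 677 and 246 CPM in the CTRL mRNA libraries. It had 1153, 875 and 865 CPM after KCl for 1 h and 1883, 1848 and 1881 CPM after 3 h. All 3 groups were separate, and the 3 h libraries agreed within 19.7 CPM (SD). The change at 3 h was 2.32 (SE 0.49, adjusted p = 0.00218), or 5.01-fold. At 1 h it was 1.35 (SE 0.48, adjusted p = 0.124) and was not called. CTRL replicate 2 held 2.85 times the mean of the other CTRL libraries. With the replicate as a block and the CTRL numbers exchanged, the 1 h change was 1.496 (SE 0.33, adjusted p = 0.00639) and was called, as it was without CTRL replicate 2, at 2.03 (adjusted p = 0.0225). With the labelled numbers as a block it was 1.284 (adjusted p = 0.0923). Without CTRL replicate 2 the 3 h change was the highest of its alternatives, at 3.01.

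The CTRL libraries were not alone in this spread. Replicate 1 of IM 1h had 660 CPM against 249.6 and 243 in the others (2.68 times their mean), replicate 1 of JTE 1h had 648 against 213 and 194 (3.18 times), and replicate 1 of JTE 6h had 494 against 209 and 198 (2.43 times). These are the libraries whose deviations over all genes follow CTRL replicate 2. In the groups collected after 18 h the 3 libraries of SLC38A2 lay between 162 and 203 CPM. In nuclear RNA, CTRL had 382, 301 and 213 CPM and KCl 1h had 892, 829 and 550.2 CPM, without overlap. The nuclear change was 1.35 (SE 0.33, adjusted p = 0.00815), was called in each of the alternatives run, and ranged from 1.14 to 1.56. The change in nuclear RNA minus that in mRNA was -0.09 (SE 0.59, adjusted p = 1.00).

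**Figure D3:**
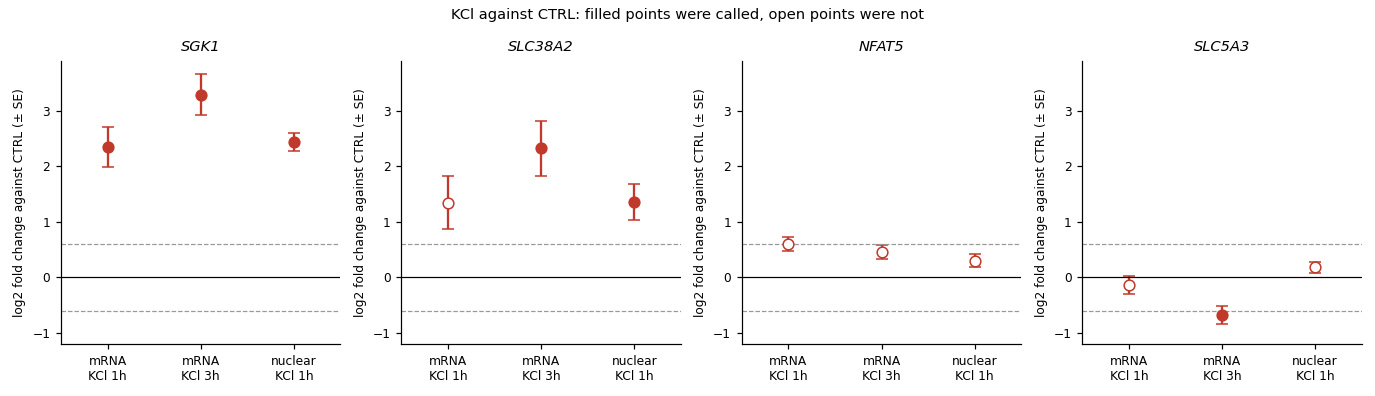
log2 fold change of KCl against CTRL (points, with SE) for SGK1, SLC38A2, NFAT5 and SLC5A3 in mRNA at 1 and 3 h and in nuclear RNA at 1 h. Filled points were called, and dashed lines mark 0.6 in either direction. NFAT5 in mRNA at 1 h lies just under the line at 0.596, and SLC5A3 lies beyond the lower one at 3 h only.

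NFAT5, the transcription factor of the tonicity response, had 86.9, 80.0 and 80.9 CPM in the CTRL mRNA libraries. It had 104, 113 and 153 CPM after KCl for 1 h and 110.1, 96.1 and 127 CPM after 3 h. All 6 KCl libraries lay above all CTRL libraries. The change was 0.596 (SE 0.13, adjusted p = 0.00384) at 1 h and 0.46 (SE 0.13, adjusted p = 0.0133) at 3 h, so both passed the adjusted p and fell short of the fold threshold. Left-out libraries moved the 1 h value between 0.434 and 0.705, and it passed the threshold without CTRL replicate 1 (0.643), KCl 1h replicate 1 (0.705) or KCl 1h replicate 2 (0.628). In nuclear RNA the ranges overlapped, at 128, 103 and 117 CPM in CTRL and 154, 126 and 145 CPM after KCl, a change of 0.30 (SE 0.11, adjusted p = 0.0548). The replicate numbers paired these groups, and each KCl library lay above the CTRL library of its own number. With the replicate as a block the change was 0.302 (SE 0.07, adjusted p = 0.000478), within the fold threshold. Nuclear minus mRNA, the change was -0.40 (SE 0.20, adjusted p = 0.566). Of the exonic bases of NFAT5, 10.1% are shared with MIR1538 and ENSG00000260772, both at 0 CPM in CTRL. NQO1, transcribed towards it and at 59.9 CPM in nuclear CTRL, ends 2330 bases beyond its 3′ end. Counting ignored strand, and the part of NQO1 in these values was not tested.

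SLC5A3, SLC6A6 and AKR1B1 are classical targets of NFAT5. None of the 3 was called higher after KCl for 1 or 3 h in mRNA or 1 h in nuclear RNA. Later times with KCl were not sampled. SLC5A3, the myo-inositol transporter, had 67.7, 66.0 and 76.8 CPM in CTRL, 59.4, 59.2 and 70.5 CPM after KCl for 1 h, and 46.4, 47.4 and 34.6 CPM after 3 h. The 3 h libraries lay below all CTRL libraries, a change of -0.67 (SE 0.16, adjusted p = 0.00405). Without KCl 3h replicate 3 it was -0.524 (adjusted p = 0.0325), short of the fold threshold. The 1 h change was -0.14 (SE 0.16, adjusted p = 0.90). In nuclear RNA SLC5A3 had 99.7, 102 and 117 CPM in CTRL and 119, 112 and 127 CPM after KCl, a change of 0.18 (SE 0.10, adjusted p = 0.2096). Each nuclear KCl library lay above the CTRL library of its own number, and that fit did not use this pairing. SLC5A3 shares 273 of its 11576 exonic bases with MRPS6 on the same strand, and pairs over both were left out of the counts. MRPS6 had 23.7 ± 3.94 CPM in mRNA CTRL and 29.4 ± 6.91 CPM after KCl for 3 h.

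SLC6A6, the taurine transporter, did not differ detectably with KCl. It had 218, 253 and 169.8 CPM in mRNA CTRL, 238, 195 and 159 CPM after 1 h, and 231, 272 and 188 CPM after 3 h, with overlap throughout. The changes were -0.10 (SE 0.20, adjusted p = 0.99) and 0.15 (SE 0.20, adjusted p = 0.693) in mRNA and -0.08 (SE 0.14, adjusted p = 0.739) in nuclear RNA. GRIP2, which shares 239 exonic bases with SLC6A6 on the opposite strand, had 0.054 ± 0.053 CPM in mRNA CTRL, 3.43 ± 1.90 CPM after 1 h and 4.87 ± 1.88 CPM after 3 h. In nuclear RNA it had 2.498 ± 0.621 CPM in CTRL and 28.9 ± 8.80 CPM after KCl, and its part in the SLC6A6 values was not tested. AKR1B1, aldose reductase, lay between 3.42 and 5.76 CPM in all 9 CTRL and KCl mRNA libraries, and its changes ran from 0.05 in nuclear RNA to 0.20 in mRNA at 3 h (adjusted p from 0.572 to 0.979).

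No gene of the WNK route was called after KCl. SLC12A2, the cotransporter itself, had 55.2, 60.7 and 64.2 CPM in mRNA CTRL, 60.6, 63.4 and 71.6 CPM after KCl for 1 h and 57.8, 50.03 and 63.6 CPM after 3 h. WNK1 had 277, 261 and 287 CPM in CTRL, 277, 298 and 321 CPM after 1 h, and 278, 286 and 286 CPM after 3 h. In nuclear RNA the 3 KCl libraries of WNK1 (327, 325 and 342 CPM) lay above those of CTRL (293, 282 and 299 CPM), with a change of 0.20 (SE 0.08, adjusted p = 0.0751). That fit did not use the pairing of these nuclear libraries by replicate number. RAD52, transcribed towards WNK1 and at 13.1 CPM in nuclear CTRL, ends 625 bases beyond the 3′ end of WNK1. Its part in the WNK1 values of any group was not tested. OXSR1 changed by 0.08 (SE 0.09, adjusted p = 0.911) and 0.01 (SE 0.09, adjusted p = 0.971) in mRNA. STK39 stayed between 0.436 and 2.52 CPM in the CTRL and KCl mRNA libraries, and its change of 0.69 at 3 h carried an SE of 0.57 (adjusted p = 0.487). For SLC12A2, WNK1 and OXSR1 the SE of each mRNA change was at most 0.12, and for STK39 a change of the fold threshold could not be resolved.

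**Figure D4:**
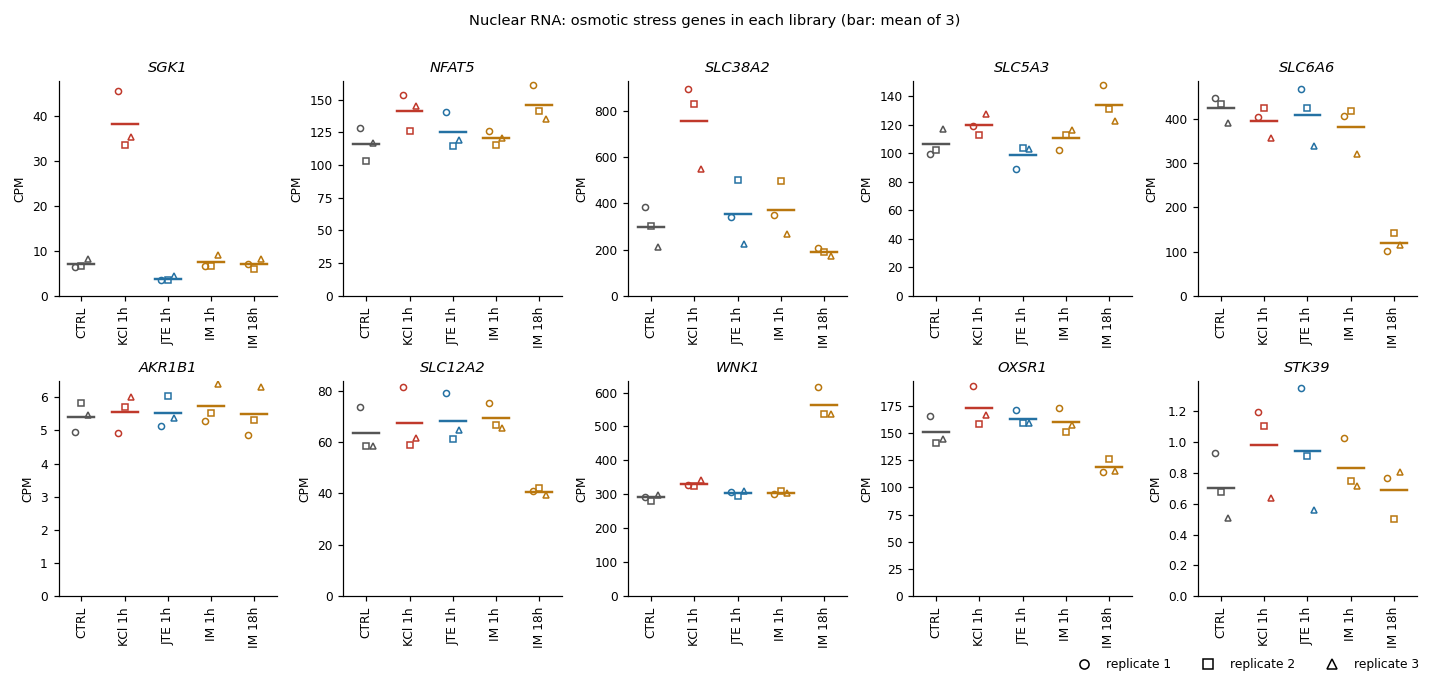
CPM of each gene in every nuclear RNA library, by group, with replicate numbers as symbols and bars at the mean of 3. SGK1 and SLC38A2 are separate from all other groups after KCl for 1 h, and SLC6A6 falls from 423 ± 29.6 CPM in CTRL to 119 ± 21.1 CPM after imatinib for 18 h.

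JTE hinders the cleavage of new transcripts at their 3′ ends and adds no osmolyte. No member was called in mRNA after 1 h (0.851% of all genes called in either direction), after 6 h (6.73% higher and 6.47% lower) or after 18 h (3.29% higher and 2.09% lower). The share of calls at 18 h that were higher was 61.1%, and 74.0% when library totals alone set the scale. With edgeR, 0 members had an unadjusted p under 0.05 at 1 h, and 2 had one at each later time. SLC12A2 at 6 h (-0.36, adjusted p = 0.0355) and OXSR1 at 18 h (-0.29, adjusted p = 0.0405) passed the adjusted p without the fold. SLC38A2 at 18 h lay below all CTRL libraries (-1.15, SE 0.48, adjusted p = 0.149) and was called only with no low-count filter (-1.16). The high CTRL replicate 2 of SLC38A2 is part of both values, and no CTRL library was matched to 18 h. In nuclear RNA after JTE for 1 h, 7% of all genes were called higher, and none of the 10. SGK1 alone among them was called lower, with 1.51% of all genes called lower. It had 3.46, 3.45 and 4.34 CPM, below all CTRL libraries, a change of -0.92 (SE 0.18, adjusted p = 0.00162). In mRNA SGK1 after JTE for 1 h had 3.12, 3.74 and 5.98 CPM and overlapped with CTRL (-0.72, SE 0.37, adjusted p = 0.773), and the difference between fractions was -0.18 (SE 0.39, adjusted p = 0.964).

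KCl 1h and JTE 1h were compared directly. In mRNA, 2 members were higher after KCl, SGK1 by 3.06 (SE 0.37, adjusted p = 1.2e-05) and NFAT5 by 0.78 (SE 0.13, adjusted p = 0.000361), with 2.56% of all genes called higher. NFAT5 had 70.0, 70.9 and 71.1 CPM after JTE, below the KCl libraries and below those of CTRL. SLC38A2 was 1.44 higher (SE 0.48, adjusted p = 0.0957) and not called. The replicate numbers paired these groups, and with the replicate as a block it was 1.56 higher (adjusted p = 0.0372). Without JTE 1h replicate 1 it was 2.202 higher (adjusted p = 0.0134). In nuclear RNA, 10.7% of all genes were called higher after KCl, and 2 members, SGK1 by 3.36 (SE 0.17, adjusted p = 2.0e-10) and SLC38A2 by 1.11 (SE 0.33, adjusted p = 0.0345). The SLC38A2 call was lost without any 1 of 4 libraries, KCl 1h replicates 1 (0.965) and 2 (1.05) and JTE 1h replicates 1 (1.05) and 3 (0.873), and the adjusted p then lay between 0.0940 and 0.119.

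The members called after imatinib were SLC6A6, SLC12A2 and WNK1. After 1 h no member was called in mRNA (0.0166% of all genes in either direction) or in nuclear RNA (0.0456%), and with edgeR none had an unadjusted p under 0.05. After 6 h SLC6A6 was called lower in mRNA (4.12% of all genes lower, 5.82% higher). After 18 h SLC6A6 and SLC12A2 were called lower and WNK1 higher in both fractions. Background shares at 18 h were high, with 17.2% of all genes higher and 13.2% lower in mRNA, and 17.2% higher and 15.4% lower in nuclear RNA, so 1 higher and 2 lower of 10 is near what all genes showed.

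SLC6A6 had 141, 92.6 and 82.1 CPM after imatinib for 6 h and 72.6, 75.1 and 74.5 CPM after 18 h, all below the CTRL libraries. The changes were -1.08 (SE 0.20, adjusted p = 0.000697) and -1.56 (SE 0.20, adjusted p = 2.5e-06), or 2.96-fold lower at 18 h. After 1 h it had 271, 199.8 and 164 CPM (-0.02, SE 0.20, adjusted p = 1.00). Nuclear SLC6A6 fell from 446, 433 and 390 CPM to 101, 142 and 114 CPM (-1.90, SE 0.14, adjusted p = 5.8e-09), or 3.72-fold. GRIP2 had at most 0.718 ± 0.241 CPM after imatinib for 18 h, in nuclear RNA. The fall of the taurine transporter was the largest change of the 10 genes with imatinib in both fractions.

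SLC12A2 had 31.0, 39.7 and 38.5 CPM in mRNA after imatinib for 18 h, below all CTRL libraries (-0.76, SE 0.12, adjusted p = 2.0e-05). Nuclear SLC12A2 had 40.9, 41.9 and 39.3 CPM against 73.5, 58.4 and 58.5 CPM in CTRL (-0.71, SE 0.14, adjusted p = 0.000301), and the change was -0.541 without nuclear CTRL replicate 1, short of the fold threshold. WNK1 had 496, 386 and 407 CPM in mRNA after 18 h (0.61, SE 0.12, adjusted p = 0.000265), just past the threshold, and 616, 538 and 537 CPM in nuclear RNA (0.89, SE 0.08, adjusted p = 4.6e-08). The mRNA call of WNK1 was lost in 8 of 14 alternatives, with values from 0.48 to 0.60, and its nuclear call in none. Without CTRL replicate 2 it was 0.547, without CTRL replicate 3 it was 0.60 and without IM 18h replicate 1 it was 0.480. OXSR1, the kinase between both, was lower in mRNA (-0.42, SE 0.09, adjusted p = 0.000446) and in nuclear RNA (-0.41, SE 0.11, adjusted p = 0.00379), within the fold threshold. The kinase at the head of the route and the cotransporter at its end thus moved in opposite directions after 18 h.

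SLC5A3 after imatinib for 18 h had 94.2, 83.55 and 108 CPM, above all CTRL libraries (0.41, SE 0.16, adjusted p = 0.0399), and its nuclear change was 0.27 (SE 0.10, adjusted p = 0.0365). SLC38A2 after 18 h had 198, 195 and 203 CPM in mRNA (-0.98, SE 0.48, adjusted p = 0.102) and 208, 190.1 and 171 CPM in nuclear RNA (-0.73, SE 0.32, adjusted p = 0.0901). In mRNA CTRL, replicate 2 had 677 CPM against 229.9 and 246 in the others, so the size of the mRNA change leans on that library. After JTE for 18 h the mRNA change of SLC38A2 was -1.15 (adjusted p = 0.149). Same-number deviations of nuclear CTRL and IM 18h correlated at 0.234 to 0.676. CTRL replicate 2 followed IM 18h replicate 3 more closely (r = 0.503), so the numbers pair these groups only in part. With the replicate as a block the nuclear SLC38A2 change was -0.688 (adjusted p = 0.0123). NFAT5 after 18 h was 0.29 higher in mRNA (adjusted p = 0.0717) and 0.26 higher in nuclear RNA (adjusted p = 0.0637).

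**Figure D5:**
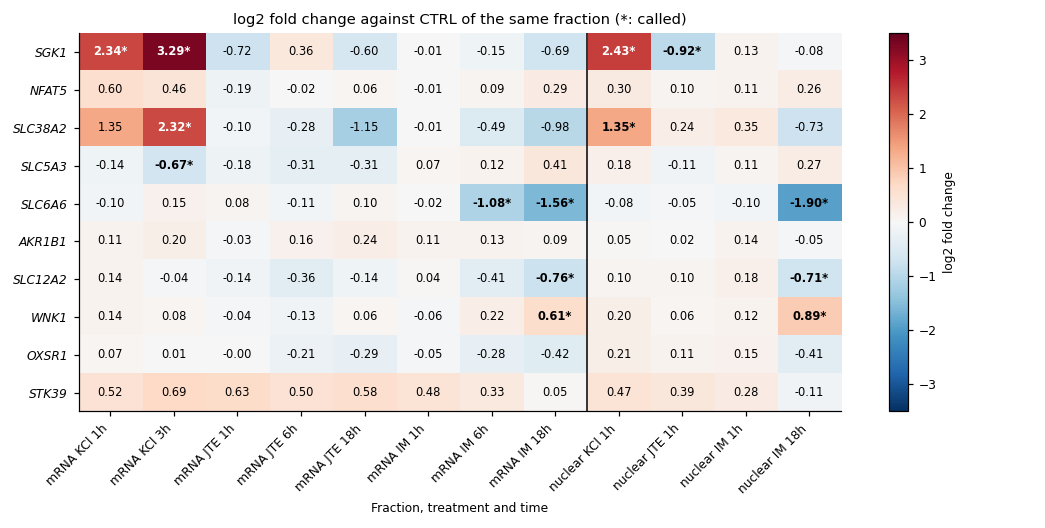
log2 fold change of each gene against the CTRL libraries of the same fraction, with an asterisk at called changes. KCl columns carry calls for SGK1, SLC38A2 and SLC5A3, and the nuclear JTE 1h column carries a call for SGK1. The imatinib columns carry calls for SLC6A6 at 6 and 18 h, and for SLC12A2 and WNK1 at 18 h. All comparisons of a fraction share their CTRL libraries.

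No member was called for a difference in response between nuclear RNA and mRNA. The SE of the difference reached 0.85 (SLC38A2 for JTE 1h), and SGK1 for IM 18h differed by 0.66 (SE 0.33, adjusted p = 1.00). The test of that difference called 0.668% of 21095 genes for KCl 1h, 0.0605% of 19831 for JTE 1h, 0% of 19420 for IM 1h and 0.0901% of 19967 for IM 18h, in either direction. With edgeR, 1 of the 40 member tests had an unadjusted p under 0.05, that of WNK1 for IM 18h (0.33, SE 0.15, adjusted p = 0.987). For IM 1h, 395 genes had an unadjusted p under 0.05, and DESeq2 called no member either.

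Over the 9 mRNA groups the order of levels differed by gene. For SGK1 both KCl groups overlapped with each other and lay above the remaining 7, of which JTE 6h was highest at 8.82 ± 4.55 CPM and JTE 1h lowest at 4.28 ± 1.51 CPM. SLC38A2 went from 1871 ± 19.7 CPM after KCl for 3 h to 965 ± 164 after 1 h, with no overlap, and then to CTRL at 384 ± 254, which overlapped with IM 1h, JTE 1h, JTE 6h and IM 6h in turn. IM 18h and JTE 18h stood lowest, at 199 ± 4.08 and 181 ± 17.2 CPM. NFAT5 ran from 124 ± 26.2 CPM after KCl for 1 h to 70.7 ± 0.566 CPM after JTE for 1 h, and the groups KCl 1h, KCl 3h and IM 18h overlapped in turn. SLC5A3 ran from 95.3 ± 12.3 CPM after IM 18h to 42.8 ± 7.13 CPM after KCl 3h, which overlapped with no neighbour. SLC6A6 ran from 240.5 ± 12.4 CPM after JTE 18h to 74.1 ± 1.30 CPM after IM 18h, and only IM 6h and IM 18h stood apart from the group above them. SLC12A2 ran from 65.2 ± 5.76 CPM after KCl 1h to 36.4 ± 4.68 CPM after IM 18h, WNK1 from 429.8 ± 58.5 CPM after IM 18h to 239 ± 36.9 CPM after JTE 6h, and OXSR1 from 182 ± 7.91 CPM after KCl 1h to 134 ± 11.9 CPM after IM 18h. AKR1B1 had group means from 4.16 to 5.39 CPM and STK39 from 0.838 to 1.34 CPM, with overlap between neighbours.

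Genes with a similar pattern over the 9 mRNA group means were found among 8822 genes with a mean of at least 10 CPM, by Pearson's r of log2(CPM + 0.5). For SGK1 they were KLHL15 (r = 0.992), ZNF280B (0.988) and BRD2 (0.983). For SLC38A2 they were KLHL15 (0.966), CDIN1 (0.966) and SGK1 itself (0.964). For SLC5A3 they were ZNF397 (0.990), RBM12B (0.976) and CD164 (0.971). The 9 points share libraries and depth, and these values describe them with no test.

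A wider list of 53 genes of osmotic stress was read in the same fits, with 44 past the count filter in mRNA and 49 past it in nuclear RNA. It held further osmolyte transporters and enzymes, water channels, cation-chloride cotransporters and their WNK regulators, the volume-regulated anion channel LRRC8A to LRRC8E, other SGK kinases and the osmosensing MAP kinase route. In mRNA after KCl for 1 h, 2.51% of all genes were called higher (532 of 18095 lower). After 3 h, 4.55% were called higher and 7.33% lower. Of the 44, none was called at 1 h, and at 3 h 1 was called higher and 1 lower. These were KLHL2, which serves in the breakdown of WNK kinases (9.99 ± 0.376 CPM in CTRL and 15.9 ± 2.21 CPM, 0.71, SE 0.11, adjusted p = 7.7e-05), and CSAD, an enzyme of taurine synthesis (5.74 ± 0.718 and 2.99 ± 0.436 CPM, -0.90, SE 0.20, adjusted p = 0.0021). Both were named after their values were seen. In nuclear RNA at 1 h, 8 of the 49 were called higher, a share near the 15.3% of all genes called higher. LRRC8E was called lower (1.68 ± 0.297 and 0.913 ± 0.273 CPM, adjusted p = 0.0402), with 8.5% of all genes called lower. The median change of the wider list in these comparisons was 0.10, 0.14 and 0.12.

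After JTE the wider list held 0 calls in mRNA at 1 h, 2 higher (KLHL3 and SLC6A12) and 1 lower (SLC12A4) at 6 h, 2 higher (AQP1 and MAP3K3) and 1 lower (ISYNA1) at 18 h, and 1 higher (SLC12A5) in nuclear RNA at 1 h. The shares of all genes called were 6.73% higher and 6.47% lower at 6 h, 3.29% and 2.09% at 18 h, and 7% higher in nuclear RNA. After imatinib it held 7 higher and 2 lower in mRNA at 6 h, 12 higher and 7 lower in mRNA at 18 h, and 13 higher and 11 lower in nuclear RNA at 18 h. Of all genes, 5.82% were higher and 4.12% lower in mRNA at 6 h, 17.2% and 13.2% in mRNA at 18 h, and 17.2% and 15.4% in nuclear RNA at 18 h. Among the 11 cotransporter and WNK genes tested in nuclear RNA at 18 h, 5 were called higher and 1 lower (WNK2). In mRNA at 18 h, 4 of the 10 tested were called higher and none lower. The higher ones in mRNA included the cotransporter SLC12A7 (2.61, SE 0.38), WNK4 (1.81, SE 0.14) and KLHL3 (2.42, SE 0.80). SLC12A7 rose from 4.32 ± 1.47 to 26.9 ± 7.19 CPM and WNK4 from 28.2 ± 1.15 to 101 ± 14.5 CPM. The Na-K-2Cl cotransporter SLC12A2 fell in the same libraries. Among the 5 genes of the anion channel, LRRC8B (-1.14, SE 0.14) and LRRC8C (-0.87, SE 0.14) were lower. Among the 9 tested osmolyte genes, 4 were higher (SORD at 1.59, SE 0.26, CSAD, GDPD5 and PNPLA6) and 2 lower (IMPA1 and the amino acid transporter SLC38A1 at -1.03, SE 0.14). AQP1, a water channel of red cells, rose from 2.62 ± 1.06 to 58.9 ± 11.6 CPM (4.45, SE 0.46, adjusted p = 1.4e-07). These genes were named after their values were seen.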

How the data were processed

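The deposited values were raw counts of read pairs per gene. Per the study's methods, the authors trimmed and deduplicated reads without molecular identifiers, aligned them with STAR to GRCh38.p14 keeping unique alignments, and counted with featureCounts without a strand setting. The longest intron allowed was 10000 bases, which 8 of the 10 genes exceed (STK39 in 7 gaps, SGK1 in 5), so some spliced pairs of these genes were lost in all groups. The annotation release is not given in the sources used here. A gene length column in the files, summed exonic bases, served for TPM.

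Counts were tested as deposited with edgeR 4.0.16 (R 4.3.3): TMM, filterByExpr, robust quasi-likelihood test, all libraries of a fraction in 1 fit, Benjamini-Hochberg adjustment over all genes tested. Calls combined a threshold of 0.05 for the adjusted p with one of 0.6 for the size of the log2 change. Responses in both fractions were compared by an interaction in 12 libraries. The code was tested on simulated counts. Alternatives were DESeq2 1.42.0, other scalings, no count filter, no fold threshold, 2-group fits, a replicate block, thinning and leaving out each library. Replicates differed beyond sampling noise (chi-square per gene 2.37 to 62.5). Each SE was the size of the log2 change divided by the square root of the F statistic of its test, and describes these libraries. The members and lists were chosen with earlier results of these data known. Besides the 10 genes, the rule named wider-list genes called in both mRNA KCl comparisons (0 qualified), genes sharing exonic bases with a member, and the 3 genes most like each member called after KCl. Wider-list genes and neighbouring genes that the text names fall outside it and were named after their values were seen.

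Replicate numbers come from the sample titles. Same-number deviations from group means correlated at 0.234 to 0.891 between nuclear CTRL and treated libraries, at 0.617 to 0.748 between nuclear KCl 1h and JTE 1h, at 0.583 to 0.671 between the mRNA KCl times and at 0.729 to 0.825 between mRNA KCl 1h and JTE 1h, which pairs those groups. For nuclear IM 18h this holds only in part, since CTRL replicate 2 followed IM 18h replicate 3 (0.503) more closely than replicate 2 (0.234). Under its labelled numbers, mRNA CTRL was not paired with any treated group (lowest values -0.367 to -0.135). The study's list of mapped reads has the totals of CTRL replicates 1 and 2 exchanged. With them exchanged, same-number values over all treated mRNA groups were 0.055 (JTE 18h) to 0.877, and over 0.1 in every pair apart from JTE 18h. Groups and labelled numbers were kept, and a block with these numbers exchanged was added after seeing the data.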

Additional observations from a re-analysis of the deposited data

How the results depend on the processing

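Of the 18 gene calls and 4 further changes followed here, 14 kept their call under every alternative run, and none changed direction. The number of members called moved as follows. For mRNA KCl 1h it was 1, and 2 with no fold threshold, 3 with no low-count filter, 2 with the replicate block and mRNA CTRL replicates 1 and 2 exchanged, and 1 to 2 with a library left out. For mRNA JTE 1h it was 1 with no low-count filter. For JTE 6h it was 1 and for JTE 18h 1 with no fold threshold, and for JTE 18h 2 with no low-count filter. With no fold threshold it was 3 for IM 6h, 5 for mRNA IM 18h and 5 for nuclear IM 18h. For KCl 3h against KCl 1h it was 2 with no low-count filter, 1 with the replicate block, 1 in a fit of only these groups and 0 to 2 with a library left out. For nuclear KCl 1h against JTE 1h it was 1 in a fit of only these groups and 1 to 2 with a library left out. In mRNA IM 18h, fits of only the 2 groups and with no low-count filter changed which genes were called. Both lost WNK1 (0.575 and 0.527) and called SGK1 lower (-0.723 and -0.769, against -0.688 in the main fit). The fit with no filter also called SLC38A2 lower there (-1.067), with the high CTRL replicate 2 included. In nuclear IM 18h, both called SLC38A2 lower (-0.726 and -0.729). A change within the fold threshold is not called whatever its adjusted p, so counts of calls do not show it. Among such changes, the adjusted p with the replicate block is given here for NFAT5 in nuclear RNA alone. The replicate block changed no other call of a member in paired groups, labelled or exchanged, apart from those given with their values above. The cause of these shifts was not tested. Genes called over the whole table moved by over 1.5 times under at least 1 alternative in 14 comparisons: mRNA KCl 1h (986, from 465 to 1427), JTE 1h (154, from 5 to 280), JTE 18h (975, from 577 to 1663), IM 1h (3, from 1 to 13), IM 6h (1799, from 1241 to 2898), KCl 3h against KCl 1h (596, from 294 to 990) and KCl 1h against JTE 1h (777, from 299 to 1170), nuclear KCl 1h (5227, from 4367 to 8022), IM 1h (10, from 4 to 69) and KCl 1h against JTE 1h (3489, from 2799 to 5517), and nuclear minus mRNA for KCl 1h (141, from 60 to 400), JTE 1h (12, from 1 to 62), IM 1h (0, from 0 to 2) and IM 18h (18, from 9 to 61). Other scalings moved the median change of all genes by at most 0.072. Depth limits STK39, AKR1B1 and SGK1 in untreated cells most.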

Other observations

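In nuclear RNA after KCl for 1 h, 8 genes of the wider list were called higher that were low or silent in CTRL, a share of the 49 tested near the 15.3% of 21929 genes called higher. Of the 8, 4 passed the count filter in mRNA (MAP3K15, SLC6A12, SGK2 and SLC12A5), and none of these was called there at 1 or 3 h. AQP2, the vasopressin-regulated water channel of the kidney and a known NFAT5 target, had 0 counts in the 3 CTRL libraries and 1.56, 1.61 and 3.02 CPM after KCl. Against a floor of 3 counts over the CTRL group, that is at least 44.5-fold higher. CDO1, cysteine dioxygenase of taurine synthesis, also had 0 counts in CTRL and 1.25, 1.20 and 1.36 CPM after KCl, at least 27.4-fold higher. SLC12A3, the thiazide-sensitive Na-Cl cotransporter, had 1 count in CTRL and 1.87, 1.47 and 3.70 CPM after KCl.

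SLC5A11, a myo-inositol transporter, had 5 counts in CTRL and 1.82, 2.30 and 3.36 CPM after KCl. SLC6A12, the betaine transporter BGT1 and a known NFAT5 target, had 4 counts in CTRL and 0.727, 0.506 and 0.877 CPM after KCl. AQP2, CDO1, SLC12A3, SLC5A11 and SLC6A12 passed the count filter in nuclear RNA only through the KCl libraries, where they are high, so their calls were set by it and are given as a description. SLC12A5 rose from 1.16 to 4.22 CPM, SGK2 from 0.295 to 0.946 CPM and MAP3K15 from 0.509 to 1.38 CPM. The distances from these genes to expressed neighbours varied widely, and the share of all genes lying as near to one was not determined. The nearest same-strand gene of at least 10 CPM in nuclear CTRL ends 11246 bases upstream of CDO1 (ATG12), 14921 upstream of SLC12A3 (NUP93), 18209 upstream of SLC5A11 (TNRC6A), 65559 upstream of SLC6A12 (KDM5A) and 8018 upstream of SGK2 (L3MBTL1). Such a gene was farther from SLC12A5 (PCIF1, 73667 bases), AQP2 (TMBIM6, 185807) and MAP3K15 (EIF1AX, 609257). On the opposite strand, NCOA5 ends 833 bases beyond SLC12A5, ARHGAP17 7757 bases beyond SLC5A11 and RACGAP1 18042 bases beyond AQP2. The nearest facing gene was 236616 bases or more from SLC12A3, SGK2, CDO1 and MAP3K15, and none was found for SLC6A12. Whether RNA that runs on from these neighbours takes part in the counts was not tested. SLC6A12 was also called higher in mRNA after JTE for 6 h, with 0.824 ± 0.337 CPM against 0.0187 ± 0.0323 CPM in CTRL. All genes in these 2 paragraphs were named after their values were seen.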
